A study of Homo sapiens with 4 samples.

Results

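The 10 genes described here encode NF-kappaB subunits and the proteins that hold NF-kappaB back. They come from a deposited table of 13957 genes, and having a row there was a condition for being listed. They were found by their symbol: NFKB1, NFKB2, RELA and RELB for the DNA-binding subunits, NFKBIA, NFKBIB, NFKBIE and BCL3 for the IkappaB family, and TNFAIP3 and BIRC3 for the feedback ubiquitin enzymes. The RNA came from MDA-MB-231 Fluc, a human breast cancer cell line that carries an inserted luciferase gene in every sample. In 2 samples the cells had received 50 μM cordycepin for 2 h, and in the other 2 the vehicle DMSO for 2 h. Cordycepin is an adenosine analogue that lacks a hydroxyl group on its sugar and interferes with the polyadenylation of RNA. Neither the labels nor the study's methods say whether the line was a single clone, or whether duplicates came from separate cultures.

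The values described are expression levels, and they do not answer how the genes responded to cordycepin. The deposited table holds 1 mean level per gene over all 4 libraries, as log2 CPM, where CPM is a gene's reads scaled to a fixed library size, and no value for any single library. The difference between cordycepin and DMSO is held there only as the authors' own statistics, which were not used, so the response of the members was not analysed here. No spread between replicates can be computed from a single mean, and no depth per library is known. Each level below is therefore the authors' mean without an error, no test stands behind any order, and no pair of neighbours in an order can be said to differ beyond replicate spread. A gene that differed between cordycepin and DMSO has a mean that describes neither condition. Since these are bulk samples, fewer cells that express a gene and less of its RNA per cell cannot be told apart.

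NF-kappaB is a family of dimeric transcription factors that carry signals from inflammatory receptors to the nucleus. In resting cells IkappaB proteins keep most dimers in the cytoplasm. When the IkappaB kinase complex phosphorylates an IkappaB it is degraded, the dimer enters the nucleus, and among the genes it switches on are those of IkappaBs and of ubiquitin enzymes that end the signal. This negative feedback needs new RNA, and the RNAs of several feedback genes are short lived, which is why they are often followed when RNA synthesis or processing is blocked.

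The labelled cell type was checked first. All 5 genes fixed as markers of mesenchymal-like breast cancer cells had a row and lay above the upper quartile of all genes per kilobase of exon, from CD44 at 7.25 to AXL at 8.65 log2 CPM per kb. Of 7 hormone receptor and luminal genes, the receptor genes ESR1 and PGR had no row. The other 5 ranged from the transcription factor gene FOXA1 at 0.19 to the keratin gene KRT18 at 6.50 log2 CPM per kb. Of these 5, 4 lay above the median of all genes per kb, and 2 of them above the upper quartile. The leukocyte markers PTPRC, CD3E, CD68 and LYZ had no row, nor did the 3 endothelial markers PECAM1, CDH5 and VWF. The label was kept. A gene without a row has no value here, and the minimum level for a row is not given in the sources used here. The lowest level in the table was 0.56 log2 CPM.

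Sequences around the transcription starts are shown first, because feedback in this pathway is known to run through kappaB sites in the promoters of its own genes. The windows are those of RefSeq on GRCh38.p14, from 250 bases before to 50 bases after a start, and the motif searched was the kappaB consensus of 10 bases, on both strands and without mismatch. Windows were given for 8 members, and RELB and NFKBIE had no entry. At least 1 match lay in a window of 7 of these 8 members, whereas 17.6% of the 9764 genes of the table with a window had one. The stretches below are read 5′ to 3′ on the gene's strand, and capitals mark the matched bases. Positions count the start as +1 and the base before it as −1, and they give the first base of a match.

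NFKB1 had 1 match at −49, and TNFAIP3 had a pair at −67 and −55 that are separated by only a few bases. The single match of NFKBIA lay at −81. These stretches of the 3 genes are on GRCh38 at chr4:102501300-102501329 (+), chr6:137867188-137867217 (+) and chr14:35404811-35404840 (−).
NFKB1: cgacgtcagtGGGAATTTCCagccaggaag
TNFAIP3: ctttGGAAAGTCCCgtGGAAATCCCCgggc
NFKBIA: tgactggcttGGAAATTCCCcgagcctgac

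NFKB2 had the most matched windows, with none at the first of its 3 listed starts, 3 matches at the second and 2 at the third. At the second start the matches at −107 and −106 overlap in all but 1 base at each end, so they are a single stretch, and the other match lay at −78. At the third start they lay at −176 and −21. The 4 stretches are at chr10:102394462-102394490, chr10:102394490-102394519, chr10:102395519-102395548 and chr10:102395674-102395703, all on the plus strand.
NFKB2, start 2: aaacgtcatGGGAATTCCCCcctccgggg
NFKB2, start 2: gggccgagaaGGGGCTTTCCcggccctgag
NFKB2, start 3: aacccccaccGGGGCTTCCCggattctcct
NFKB2, start 3: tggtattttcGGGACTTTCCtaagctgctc

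BIRC3 had matches at −199 and −135, the former the farthest upstream of the matches shown. In NFKBIB the first start had none, and the second had an overlapping pair at −28 and −27 and another match at +39, inside the transcript. The single match of BCL3, at +3, also lay inside the transcript. The stretches are at chr11:102317275-102317304, chr11:102317339-102317368, chr19:38899932-38899960, chr19:38899997-38900018 and chr19:44748700-44748729, all on the plus strand.
BIRC3: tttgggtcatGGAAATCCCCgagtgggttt
BIRC3: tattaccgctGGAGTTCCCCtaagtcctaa
NFKBIB, start 2: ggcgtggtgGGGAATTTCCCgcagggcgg
NFKBIB, start 2: gggcgactgcGGGGGGCCCCtg
BCL3: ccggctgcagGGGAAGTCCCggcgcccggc

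RELA, the member with the highest RNA level, was the only one of the 8 without a match, in either of its 2 windows. Read over windows rather than genes, 8 of the members' 13 windows (61.5%) held a match, as did 3956 of all 35116 windows (11.3%). The members' windows were richer in G and C, with a median of 67.7% against 58.7%. Among all windows within 5 percentage points of each member window's GC content, between 8.37% and 18.7% held a match. Genes with more windows had more chances: all 4 members with 1 window had a match (12.8% of such genes of the table), and 3 of the 4 with several windows did (29.2% of such genes). A match describes letters in a window and was not shown to be bound in these cells.

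**Figure D1:**
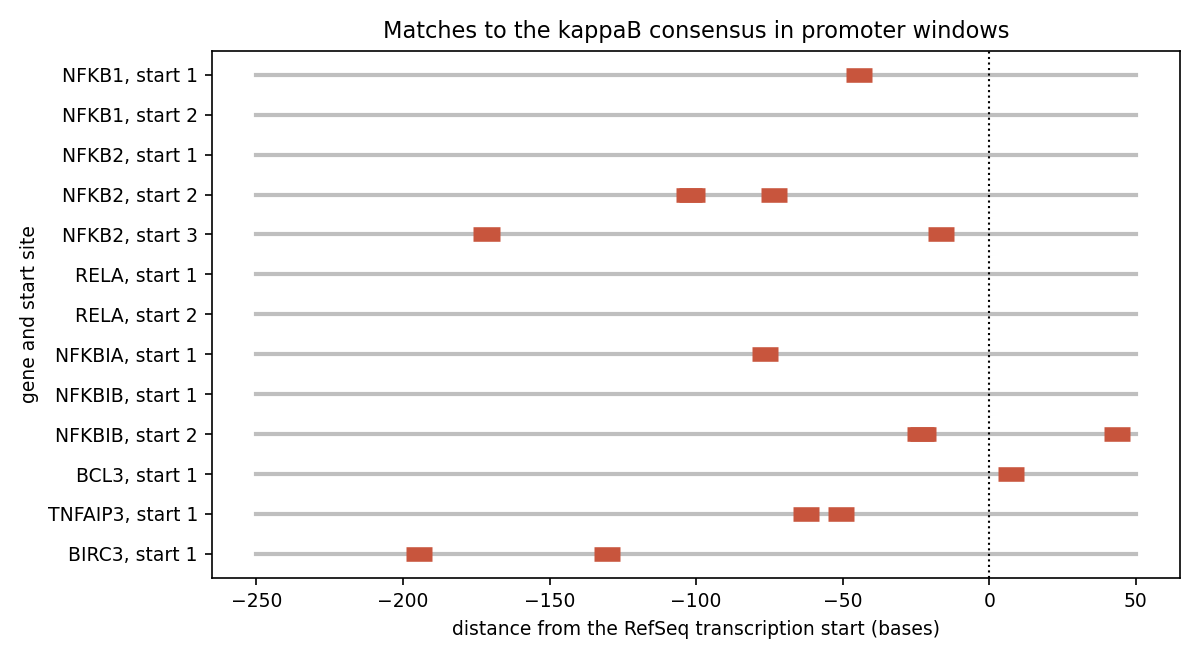
Each line is a promoter window of a member, from 250 bases before to 50 bases after a RefSeq transcription start, with the distance from the start in bases along the x axis and blocks for matches to the kappaB consensus. The 13 windows of 8 members are drawn; matches lie in 8 of them, and neither window of RELA has one.

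The levels of the members spread over most of the middle of the table. Per kilobase of exon, with the exon length the table gives for each gene, the members ranged from 0.53 for TNFAIP3 to 4.30 log2 CPM per kb for RELA, with a median of 2.83. The median of all 13957 genes was 2.43, with quartiles of 0.94 and 3.88. Of the 10 members 6 lay above that median, and only RELA lay above the upper quartile and only TNFAIP3 below the lower one. On the deposited scale, which favours long transcripts, 4 of the 10 lay above the median of all genes, 4.58 log2 CPM.

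**Figure D2:**
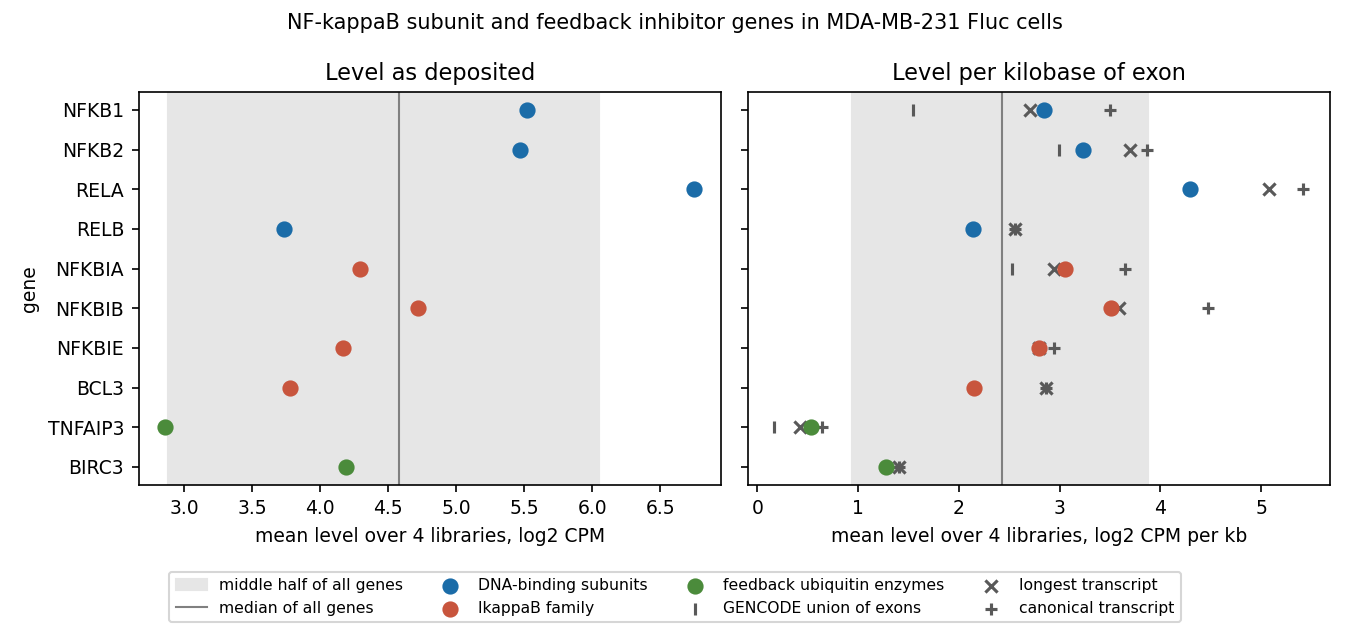
The left panel plots each member's mean level over 4 libraries in log2 CPM and the right panel the same level per kilobase of exon, where large points use the length in the table and small marks use 3 other lengths. The grey band spans the quartiles of all genes and the line their median; RELA is the highest and TNFAIP3 the lowest member in both panels and with every length.

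Among the DNA-binding subunit genes, RELA was the highest. RELA (ENSG00000173039, chr11:65653597-65663090, minus strand, GRCh38) encodes the subunit that carries the transactivation domain of the classical dimer. Its deposited level was 6.75 log2 CPM, or 107.6 CPM, and over its 5459 exon bases this was 19.7 CPM per kb, above 80.7% of all genes. NFKB2 (ENSG00000077150, chr10:102394110-102402524, plus strand) encodes the precursor that is processed in the non-canonical branch. It had 5.47 log2 CPM and 9.377 CPM per kb, above 64.3% of genes.

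NFKB1 (ENSG00000109320, chr4:102501331-102617302, plus strand) encodes the precursor of RELA's most common partner, and the precursor itself can act as an IkappaB. Its deposited level, 5.52 log2 CPM, was close to that of NFKB2, while per kb it had 7.228 CPM, above 57.8% of genes. This placement depended on the length: the table gives NFKB1 6359 exon bases, the union of its exons in GENCODE release 44 has 15679, and with the latter it lay above 35.0% of genes. RELB (ENSG00000104856, chr19:45001449-45038198, plus strand), the partner of processed NFKB2 protein, had 3.73 log2 CPM and 4.412 CPM per kb, above 44.8% of genes. It was the lowest of these 4 members except with the GENCODE union of exons, where NFKB1 at 2.932 CPM per kb stood below RELB at 4.44.

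RELA alone made up 48.1% of the summed CPM per kb of the 5 DNA-binding subunit genes, with NFKB2 at 22.9%, NFKB1 at 17.6% and RELB at 10.8%. With the other 3 lengths the share of RELA was between 56.0% and 57.0%. The remaining subunit gene, REL, which is best known from lymphocytes, is no member and gave 0.661%. The level of RELA per kb was 2.1 times that of NFKB2, 2.73 times that of NFKB1, 4.47 times that of RELB and 72.7 times that of REL. Over all 4 lengths these ratios ranged from 2.1 to 2.91 for NFKB2, from 2.73 to 6.72 for NFKB1, from 4.44 to 7.25 for RELB and from 72.7 to 133.0 for REL. In GENCODE release 44, 33.3% of the exon bases of REL are shared with another gene on the same strand, and the part of this in its low level was not tested.

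Among the IkappaB genes the order per kb, with the length in the table, ran from NFKBIB through NFKBIA and NFKBIE to BCL3. NFKBIB (ENSG00000104825, chr19:38899700-38908893, plus strand) encodes IkappaB beta, whose gene responds less to NF-kappaB than that of IkappaB alpha. It had 4.72 log2 CPM and 11.36 CPM per kb, above 69.1% of genes. NFKBIA (ENSG00000100906, chr14:35401513-35404749, minus strand) encodes IkappaB alpha, the fast feedback inhibitor. It had 4.29 log2 CPM and 8.27 CPM per kb, above 61.2% of genes.

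NFKBIE (ENSG00000146232, chr6:44258166-44265788, minus strand) encodes IkappaB epsilon, a slower feedback inhibitor, and stood at 4.17 log2 CPM and 6.983 CPM per kb, above 56.8% of genes. BCL3 (ENSG00000069399, chr19:44747705-44760044, plus strand) encodes a nuclear IkappaB protein that works with dimers of the processed precursors rather than holding them in the cytoplasm. It had 3.78 log2 CPM and 4.443 CPM per kb, above 45.0% of genes, next to RELB in the order. Per kb NFKBIB was 1.37 times NFKBIA, NFKBIA was 1.18 times NFKBIE, and NFKBIA was 1.86 times BCL3. The ratio of NFKBIA to NFKBIE turned to 0.827 with the GENCODE union of exons as length. With the longest transcript as length BCL3, at 7.323 CPM per kb, stood above NFKBIE at 6.983. NFKBIB stood first of these genes with all 4 lengths, while the order below it changed with the length. Without values per library no part of this order could be tested.

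The 2 nuclear IkappaB genes that are no members, NFKBIZ and NFKBID, stood lower, at 1.724 and 1.106 CPM per kb. They made up 5.09% and 3.26% of the summed CPM per kb of the 6 IkappaB genes, against 33.5% for NFKBIB, 24.4% for NFKBIA, 20.6% for NFKBIE and 13.1% for BCL3. With REL they formed the role of the pathway list in which all genes lay below the lower quartile of the table.

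**Figure D3:**
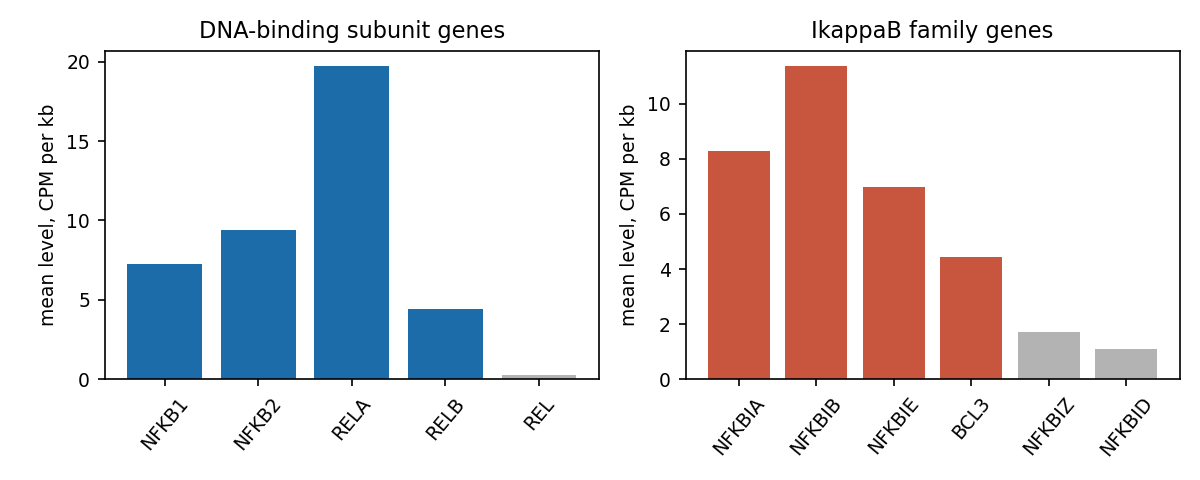
Bars give the mean level over 4 libraries in CPM per kb, with the length in the table, for the 5 DNA-binding subunit genes on the left and the 6 IkappaB genes on the right, each on an axis from 0; grey bars are genes that are no members, and no error is drawn because no value per library is given. RELA stands at 19.7 and REL at 0.2711 CPM per kb, NFKBIB at 11.36 and NFKBID at 1.106.

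Per kb, the genes of the feedback ubiquitin enzymes were the lowest members, while on the deposited scale BIRC3 stood above NFKBIE, BCL3 and RELB. TNFAIP3 (ENSG00000118503, chr6:137867214-137883312, plus strand) encodes A20, an enzyme that edits ubiquitin chains on signalling proteins of the receptor complexes. Its level was 2.86 log2 CPM, or 7.246 CPM, and 1.442 CPM per kb, above 19.6% of genes. BIRC3 (ENSG00000023445, chr11:102317450-102339403, plus strand) encodes a ubiquitin ligase, cellular inhibitor of apoptosis, that acts at TNF receptors and keeps the kinase of the non-canonical branch low. It had 4.19 log2 CPM, close to NFKBIA and NFKBIE on that scale, but over 7518 exon bases this was 2.431 CPM per kb, above 29.9% of genes.

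TNFAIP3 and BIRC3 kept the lowest and second lowest places per kb with each of the 4 lengths. NFKBIA, the other textbook feedback gene, was 5.74 times as high as TNFAIP3 per kb, and RELA was 13.7 times as high. Over all 4 lengths these ratios ranged from 5.14 to 8.1 and from 13.7 to 27.5. BIRC2, the close relative of BIRC3, lies 7807 bases from it on chromosome 11 and was named after its level was seen. At 37.05 CPM per kb, above 89.7% of genes, it was 15.2 times as high as BIRC3, and this ratio was between 15.2 and 16.8 with the other lengths. These neighbours thus had very unequal RNA levels.

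The 3′ UTRs of members were examined because AU-rich words there are known to shorten the life of feedback RNAs. Results for BIRC3 are not reported here, so what follows does not show that any word is particular to a single member. In the canonical transcripts of GENCODE release 44, the nonamer TTATTTATT occurred once in the 1993 bases of the 3′ UTR of TNFAIP3, and 9.84% of 11583 3′ UTRs of the genes in the table held it. The site, with the nonamer in capitals, is at chr6:137882298-137882326 (+).
TNFAIP3: gtaattcactTTATTTATTttattacaaa

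The shorter word ATTTA, which the nonamer contains, is reported here for the members other than BIRC3. No ranking of all 10 can therefore be read from its counts. ATTTA occurred 5 times in the 3′ UTR of TNFAIP3, where the median of 3′ UTRs of like length (within 1.2-fold) was 4. NFKBIA had 3 in 500 bases and NFKB1 3 in 708, each against a median of 1. NFKB2 had 1 in 148 bases, against a median of 0. RELB, NFKBIB and BCL3 had none, and their medians were 0 as well. RELA and NFKBIE also had none, against medians of 1 and 2. Members were compact genes: 8 of 10 had a shorter span than the median protein-coding gene of the table (median 10917 against 33892 bases), and 8 of 10 a shorter 3′ UTR (604 against 1368 bases). NFKB1, at 115972 bases, had the longest span. The number of exons did not set them apart, with a median of 9 in both.

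The rest of the pathway was read from a list of 41 further genes, of which 39 had a row. Of these 19 lay above the median of all genes per kb, and their own median was 2.41, against 2.43 for all genes. All 3 genes of the IkappaB kinase complex had a row, from IKBKB, the kinase that acts on IkappaBs in the classical branch, at 1.79 log2 CPM per kb to IKBKG, its regulatory subunit, at 3.46. IKBKG has a near-identical pseudogene copy, so its count is uncertain. The 7 upstream kinases and their adaptors ran from TAB3 at 1.83 to TAB2 at 3.93, both adaptors of the kinase TAK1.

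Of 18 receptors and proximal adaptors 17 had a row, from TLR4, the receptor for bacterial lipopolysaccharide, at −0.74 to IRAK1, a kinase of the interleukin-1 receptor and Toll-like receptor pathway, at 7.37 log2 CPM per kb. TNFRSF1B, the second TNF receptor gene, had no row. Of 10 ubiquitin enzymes and their partners 9 had a row, and 5 of them lay above the upper quartile of all genes. They ran from RNF31 at −1.48 to SHARPIN at 4.41, which encode subunits of the same linear ubiquitin ligase, and TNIP3 had no row. The median of this role, which mixes enzymes with their partners, was 3.92, and 6 of the 9 genes lay above the median of all genes. Both member genes of ubiquitin enzymes lay at or below 1.28. Low levels were not particular to them: in this role RNF31 stood at −1.48 and CYLD, named after its level was seen, at 1.34.

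**Figure D4:**
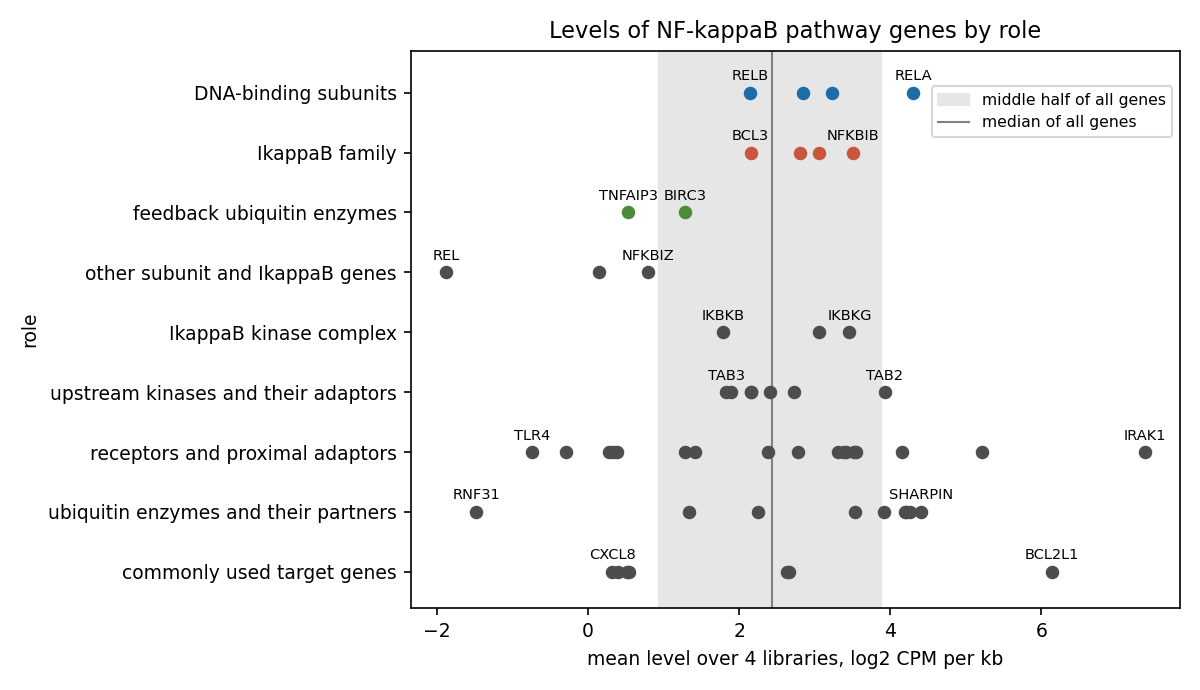
Each point is a gene, with its mean level over 4 libraries in log2 CPM per kb on the x axis and its role on the y axis; coloured points are members, dark points the other pathway and target genes, and the lowest and highest gene of each role are named. The grey band spans the quartiles of all genes; REL, NFKBID and NFKBIZ lie below it and RELA above it.

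Genes commonly used to read the output of the pathway were looked up as well. Of 18 commonly used NF-kappaB target genes outside the members, 7 had a row, and these had a median of 0.54 log2 CPM per kb. The lowest was CXCL8, which encodes a neutrophil chemokine, at 0.32, and the highest BCL2L1, which encodes a survival protein, at 6.14. CXCL1, CXCL3, CCL2, CCL20, IL1A, IL1B, TNF, VCAM1, PTGS2, CSF2 and MMP9 had no row. The 10 members were listed only because they had a row, whereas the 18 targets passed no such filter. These shares therefore cannot be compared, and neither list was drawn at random. The share of all annotated genes with a row is not given here, so 7 of 18 is no measure of pathway output.

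Exons shared with other genes were checked because a read there does not point to 1 gene alone. How such reads were counted is not given in the sources used here. In GENCODE release 44, BCL3 shared 2.1% of its exon bases with MIR8085 on the same strand. BIRC3, NFKBIB, RELA and TNFAIP3 shared between 1.47% and 1.89% with genes on the other strand, which are a gene known by ENSG00000288528 alone, SIRT2, RELA-DT and WAKMAR2. The other 5 members shared none. The libraries were stranded, and the strand setting of the count is not given in the sources used here.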

How the data were processed

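The sources of the values are 4 RNA-seq libraries of the breast cancer line MDA-MB-231 Fluc, 2 with 50 μM cordycepin and 2 with DMSO, each for 2 h. The authors made stranded, ribosome-depleted libraries and sequenced paired ends of 75 bp. They used rsubread for reads mapped on GRCh38.p13. The submitters' processing notes name hg38, TopHat, HTSeq, Cufflinks and DESeq, with no role given. The authors deposited 1 table with a mean level per gene as log2 CPM and an exon length in bases. It also gives gene symbols, IDs and coordinates. A further 4 columns hold the authors' own comparison of cordycepin with DMSO and were not used. They are the log2 fold change, the F statistic and p-values with and without adjustment. The deposited table holds 0 columns of values per sample, so no test was made. The duplicates, whose origin the labels do not give, could therefore not be compared. Depth per library is unknown. The planned test needed values per library and was not run.

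CPM was taken as 2 to the power of the deposited log2 CPM, with no filter and no pseudocount beyond what the authors applied, and summed to 1005541 over the table. It was divided by the exon length in kb (1000 bases). A shared length for all transcripts of a gene misstates the level per kb where few of its exons are used. GENCODE release 44 held 13922 (99.7%) of the gene IDs, and for 73.7% of these its union of exons had the length in the table. It gave exons, canonical transcripts and 3′ UTRs. Coordinates of genes are those of the table. Promoter windows were those of RefSeq. The kappaB scan was tested on simulated sequences of A and T with planted sites, which do not probe matches in GC-rich windows. The search for AU-rich words was not tested in this way. Python 3.11.15, numpy 2.4.6, pandas 2.3.3 and matplotlib 3.10.9 were used. Alternatives were other lengths, no length, other sets of genes, and other windows or matches for the motif.

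The genes named are the members, and the highest and lowest gene of each role of the pathway, target and marker lists, as well as listed genes without a row; others are given as named after their values were seen. The members and lists were chosen with earlier results of these data known. A few items are not reported here.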

Additional observations from a re-analysis of the deposited data

How the results depend on the processing

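The number of members above the median level per kb, 6 of 10, was 5 with the longest transcript, the GENCODE union of exons or the canonical transcript as length, 4 on the deposited scale, and 6 among protein-coding genes or genes of at least 1 log2 CPM. The genes that crossed the median were NFKB1, NFKBIE and BCL3 with the longest transcript, NFKBIA and NFKBIE on the deposited scale, NFKB1 with the union of exons, and NFKBIE with the canonical transcript. The union of exons, the canonical transcript and the 2 settings named next were chosen after seeing the data. Matching by Ensembl gene ID found all 10 members, and taking the first window of each gene left 5 of 8 members with a kappaB match (13.2% of genes of the table). Bases before the start alone left 6 (16.0%), and 1 mismatch gave 8 of 8, where 84.5% of genes had a match as well.

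No paired analysis was possible because the table's columns carry no value per library. For the same reason the comparison of cordycepin with DMSO, its other normalization, its filter and leaving out a replicate were not run. The planned search for a phosphodegron was not run, since protein sequences were not used here. What depth limits cannot be given: the levels carry no count, and a gene without a row cannot be told from one expressed below an unknown minimum.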

Other observations

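Among the subunits of the linear ubiquitin ligase, which extends the signal from TNF receptors to the IkappaB kinase complex, RNF31 stood far below its partners. RNF31 encodes the catalytic subunit, and its mean level was 0.86 log2 CPM, above only 0.899% of all genes, or 0.3581 CPM per kb. SHARPIN had 5.89 log2 CPM and RBCK1, chosen after its level was seen, 6.56 log2 CPM, which per kb were 59.4 and 50.8 times the level of RNF31. Over all 4 lengths these ratios ranged from 59.4 to 85.0 and from 32.6 to 57.2. In GENCODE release 44, 53.3% of the exon bases of RNF31 are shared with other genes on the same strand, among them one known as ENSG00000259529, while SHARPIN and RBCK1 shared none on their own strand. The part of the shared exons in the low value of RNF31 was not tested.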
